A study of Mus musculus with 24 samples.

Results

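The nuclear genes that encode the subunits of oxidative phosphorylation were followed across male and female mouse astrocyte lines that either lack p53 or carry a p53 point mutant. Members were all protein-coding genes of the count table whose GENCODE M21 symbol names a subunit of complexes I to V (the Nduf, Sdh, Uqcr, Cox4 to Cox8 and Atp5 families). This gave 79 of the 14427 genes in the table, of which 37 belonged to complex I, 4 to complex II, 8 to complex III, 13 to complex IV and 17 to complex V. Ndufa4 was counted under complex I by its symbol, although its protein is known to associate with complex IV. All 79 members passed the filter on low values, which removed no gene. The annotation holds 85 entries that fit the rule, and the other 6 (a second Atp5o entry, Cox4i2, Cox7a1, Cox7b2, Cox8b and Cox8c) were not analysed here.

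Oxidative phosphorylation is the process by which mitochondria make ATP. Complexes I to IV pass electrons from NADH and succinate to oxygen and pump protons across the inner membrane, except for complex II, which does not pump, and complex V uses the returning protons to make ATP. Most subunits are nuclear genes translated in the cytosol, and a small set is encoded by mitochondrial DNA, so the complexes are built from both genomes. Several complex IV and V subunits exist as isoforms from separate genes, some of them typical of muscle or testis. Astrocytes are known for high glycolysis beside this machinery.

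The study set the p53 mutants R172H, Y202C and Y217C against p53 deletion (KO) in each sex, by RNA sequencing of polyadenylated RNA from 24 libraries, 3 in each of 8 lines. All lines began as cortical astrocytes of C57BL/6 pups at postnatal day 1 with 1 floxed and 1 deleted Trp53 allele, with at least 3 pups pooled per sex, and all were transduced with Cre lentivirus and selected with puromycin, the KO lines included. The mutant lines had first received a retrovirus carrying mutant Trp53 with eGFP and were sorted for eGFP, a step the KO lines did not have. Cells were used at passages 10 to 15, and each line is 1 culture derived from 1 pool per sex. Sex thus cannot be told apart from the culture of origin. The labels do not say what the replicates are. They are taken here as separate thaws or platings, and p-values measure the spread between the libraries of a line.

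Total counts ran from 52787288 to 136503809 per library. Trp53 was at 50.9 CPM (counts scaled to the size of the library) in male KO and 48.9 in female KO, and rose in all 6 mutant lines (edgeR quasi-likelihood test). Its log2 fold changes for R172H, Y202C and Y217C were 5.49, 5.51 and 4.58 in the males and 5.32, 3.60 and 6.24 in the females. The rise of Trp53 thus differed between the sexes for Y202C and Y217C, and its part in the members' values was not tested. Of the astrocyte markers, Vim (3325 to 4745 CPM), Gja1 (80.99 to 221.5) and Sox9 (79.96 to 182.5) were present in every line, but Gfap did not pass 0.257 CPM outside male Y217C (6.93) and Aqp4 did not pass 1.77 outside male Y217C (8.06). Col1a1, a fibroblast collagen, stood at 3361 to 21780 CPM. A pair of libraries stood apart most clearly within their lines, measured by the chi-square per degree of freedom between the counts of libraries. Replicate 2 of female Y202C gave 52.9 and 57.4 against the other 2 libraries, which gave 11.8 between them, and replicate 1 of female Y217C gave 39.6 and 34.8, where the other 2 gave 8.06. Counts and calls of members in these 2 lines that change without that library are given both ways. Counts past a size threshold and call patterns over several lines use all libraries. Male lines were uneven too. The largest value of all, 59.2, was between replicates 3 and 1 of male Y202C, whose other pairs gave 38.1 and 21.4. Replicate 1 of male KO gave 29.1 and 21.3, where the other 2 gave 11.1. Replicate 1 of male R172H gave 34 and 29.8, where the other 2 gave 17.

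Nuclear respiratory factor 1 (NRF1) and the ETS factor GABP are known regulators of many respiratory chain genes. Short stretches around their motifs are shown here for some members, most of them described later. Of the 79 members, 66 had a promoter entry in RefSeq (build GRCm38.p6), and the 250 bases before the RefSeq start site were searched on both strands. RefSeq start sites can differ from the GENCODE coordinates given later. The stretches of Ndufb7, Ndufa5 and Atp5g2 lie inside the GENCODE gene. The ETS stretch of Cox6a1 lies mostly inside it, motif included, and that of Uqcrh reaches it only by the last base. The NRF1 motif (GCGC, any 2 bases, GCGC, which is its own reverse complement) was found in 15 of 66 (22.7%), against 5.64% of 27025 genes. The 27025 genes, used for both motifs, include genes absent from the count table, so they are not matched to the members in expression. The ETS motif CCGGAAG (or its reverse complement) was found in 12 of 66 (18.2%), against 7.83%, and Atp5h, Cox6a1 and Sdhd held both motifs, which do not overlap each other in these 3. In the lines below each 30-base stretch runs 5′ to 3′ on the strand of the gene, with the motif in capitals, the first 8 for NRF1 and the last 4 for ETS.
Ndufv2, chr17:66101560-66101589, minus strand: ccagggctcgtgaGCGCGCGCGCgccgtgc
Ndufs5, chr4:123718265-123718294, minus strand: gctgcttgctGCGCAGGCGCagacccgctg
Ndufb4, chr16:37654540-37654569, minus strand: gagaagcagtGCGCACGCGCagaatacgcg
Ndufa5, chr6:24527697-24527726, minus strand: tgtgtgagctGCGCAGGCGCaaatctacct
Sdhd, chr9:50603909-50603938, minus strand: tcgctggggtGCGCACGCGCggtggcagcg
Cox6a1, chr5:115349101-115349130, minus strand: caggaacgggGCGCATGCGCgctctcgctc
Atp5g2, chr15:102671070-102671099, minus strand: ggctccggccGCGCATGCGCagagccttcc
Atp5h, chr11:115420041-115420070, minus strand: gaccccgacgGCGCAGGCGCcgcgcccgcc
Ndufb7, chr8:83566727-83566756, plus strand: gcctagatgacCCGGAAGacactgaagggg
Sdhd, chr9:50603877-50603906, minus strand: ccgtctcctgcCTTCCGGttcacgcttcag
Uqcrh, chr4:116075071-116075100, minus strand: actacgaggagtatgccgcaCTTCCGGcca
Cox6a1, chr5:115348959-115348988, minus strand: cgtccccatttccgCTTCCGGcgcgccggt

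Members that share a motif did not move as a block. Of the 15 with the NRF1 motif, 0 were called higher and 2 lower in male R172H, while 8 were higher and 1 lower in male Y217C. Of the 51 without it, 9 were higher and 9 lower in male R172H, and 24 and 1 in male Y217C. The median log2 fold change in male Y217C was 0.169 with the NRF1 motif and 0.171 without it. Of the 12 with the ETS motif, 5 were higher and 0 lower in male Y217C, and 1 was higher and 4 lower in male Y202C. Of the 54 without it, 27 were higher and 2 lower in male Y217C, and 18 and 14 in male Y202C. A gene was called where the Benjamini-Hochberg adjusted p over all 14427 genes was under 0.05. A motif match describes the letters only.

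Levels between genes are compared per kilobase of exon, as the mean of the 8 line means. The members ran from 0.886 CPM per kb for Ndufb2 to 295 for Cox8a, with a median of 42.4. Complex IV spanned the widest range above that, from 0.912 for Cox6b2 to Cox8a, and Atp5b, the catalytic beta subunit of ATP synthase, led complex V at 229. The low level of Ndufb2 is uncertain. Its 5628 bp of exon overlap those of Gm42420 on the same strand and of Braf on the other, and only unambiguous reads were counted. The part of this overlap in its level was not tested. Across lines the levels were steady: the highest line mean divided by the lowest had a median of 1.5 and was under 2 for 70 of 79 members. The smallest ratio was 1.07 for Atp5f1, a peripheral stalk subunit, and the largest was 30.1 for Cox6a2.

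The first question was how each mutant line differed from the KO line of its own sex. In male R172H 11 members rose and 14 fell, where 40.7% of all genes were called, 20.2% higher and 20.5% lower. In male Y202C 23 rose and 24 fell (73% of all genes called, 37.6% higher and 35.4% lower). In male Y217C 38 rose and 3 fell (70.5%, with 34.9% higher and 35.6% lower). In female R172H 34 rose and 9 fell (69.7%, with 34.4% higher and 35.3% lower), in female Y202C 30 rose and 17 fell (68.6%, with 34.3% in each direction), and in female Y217C 16 rose and 18 fell (56.7%, with 28% higher and 28.7% lower). The share of members called was below the share of all genes called in each of the 6, and their median absolute log2 fold change (0.11 to 0.25) was below that of all genes (0.19 to 0.46). Changes past 0.5 on the log2 scale were called in 2 members in male R172H (12.9% of all genes), 18 in male Y202C (45.3%), 7 in male Y217C (40.3%), 13 in female R172H (38.8%), 13 in female Y202C (37.7%) and 10 in female Y217C (25.3%).

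**Figure D1:**
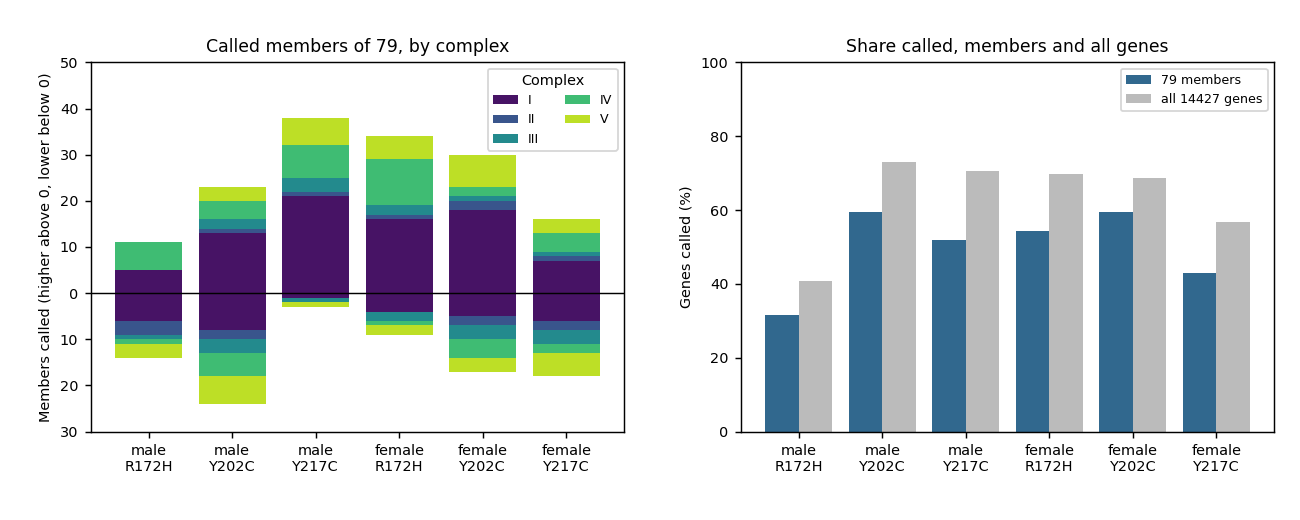
Called members in the 6 mutant lines, each against the KO line of its sex. The left panel counts members called higher (above 0) and lower (below 0), coloured by complex, and the right panel gives the share of the 79 members and of all 14427 genes called, in percent. Rises outnumber falls by 38 to 3 in male Y217C, and the share of members called is below that of all genes in every comparison.

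The balance in some comparisons rested on single libraries or on scaling. Without replicate 2 of female Y202C the count for that line was 23 higher and 25 lower, and without replicate 3 it was 33 and 10. Without replicate 1 of female Y217C the count was 14 higher and 20 lower. In male R172H the rises dropped from 11 to 6 without replicate 3 of male KO, and also to 6 without replicate 3 of male R172H. With library totals in place of TMM scaling female Y217C had 23 higher and 13 lower, and male Y217C had 54 higher and 0 lower while the median of all genes moved by 0.105 on the log2 scale.

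Across the 6 comparisons 4 members (5.06%) were called in none, where 2.49% of all genes were: Atp5e, Atp5f1, Ndufa2 and Ndufb8. Without replicate 2 of female Y202C, Ndufb8 was lower in that line (log2 -0.29, edgeR adjusted p = 0.00785). Without replicate 1 of female Y217C, Atp5e was lower in that line (log2 -0.306, adjusted p = 0.0467). The pattern counts given here use all libraries. Cox4i1, Cox7a2l and Ndufb5 were called higher in all 6, which is 3 of 79 members, while 2.54% of all genes were higher and 2.56% lower in all 6, and no member was lower in all. In total 32 members (40.5%) were only ever called higher, against 25.5% of all genes, and 18 (22.8%) only lower, against 23.3%. The other 25 (31.6%) were higher in at least 1 line and lower in another, against 48.7%. The comparisons within a sex share the KO libraries, so calls in 3 lines of 1 sex are not independent.

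**Figure D2:**
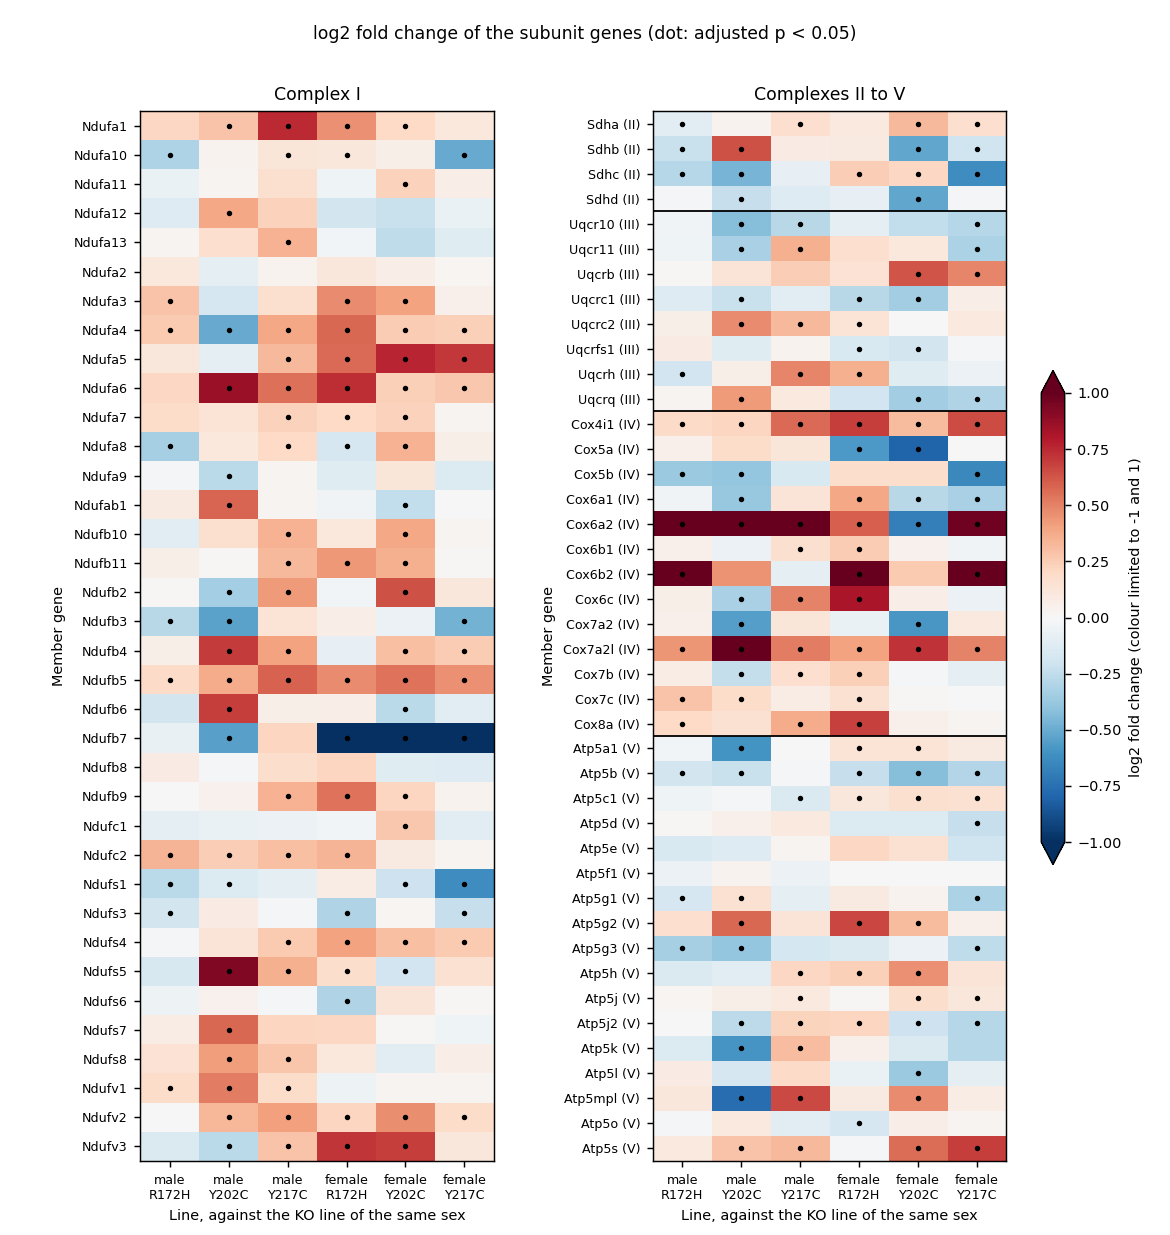
log2 fold change of the members (rows, complex in parentheses for II to V; 1 of the 79 is not drawn) in the 6 mutant lines against the KO line of the same sex (columns), with a dot where adjusted p was under 0.05. Colours stop at -1 and 1, which Cox6a2 in male Y202C (4.90) passes. The rows of Cox7a2l, Cox4i1 and Ndufb5 are red throughout, and Ndufb7 is dark blue in the 3 female columns.

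Complex I oxidises NADH. Of its 37 nuclear members 21 rose and 1 fell in male Y217C, 18 and 5 in female Y202C, 16 and 4 in female R172H, 13 and 8 in male Y202C, 7 and 6 in female Y217C, and 5 and 6 in male R172H. Complex I holds 46.8% of the members and gave 43.8% to 60% of the rises in the 6 lines, so its part was near its size. Without replicate 2 of female Y202C the count for that line was 13 and 9, and without replicate 1 of female Y217C it was 5 and 6. The 30 accessory subunits, which surround the catalytic core, are 81.1% of complex I and gave 69.2% to 94.4% of its rises, with 18 rises and 0 falls in male Y217C. In female Y202C they had 17 and 4, or 12 and 7 without replicate 2. Of the 7 core subunits, which hold the flavin and iron-sulphur centres or the quinone site, 3 rose and 1 fell in male Y217C, 4 and 2 in male Y202C, and 1 and 3 in female Y217C.

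Ndufb5, an accessory subunit of the membrane arm (chromosome 3, 32736990 to 32751566, plus strand), was higher in all 6 mutant lines. Its libraries stood at 23.5, 24.2 and 23.0 CPM in male KO and at 22.9, 23.7 and 24.5 in female KO. In the mutants they stood at 25.2, 25.6 and 30.2 in male R172H, 27.9, 29.7 and 33.9 in male Y202C, 35.8, 33.8 and 36.6 in male Y217C, 32.3, 35.6 and 30.6 in female R172H, 34.3, 33.0 and 36.2 in female Y202C, and 33.2, 31.3 and 32.8 in female Y217C. Every mutant library was above every KO library of its sex. The log2 fold changes ran from 0.19 (SE 0.07, adjusted p = 0.0379) in male R172H to 0.59 (SE 0.07, adjusted p = 1.67e-07) in male Y217C by the edgeR quasi-likelihood test. The call in male R172H was lost without replicate 3 of that line (log2 0.11, adjusted p = 0.279), without any 1 male KO library (adjusted p = 0.0529 to 0.107) and with library totals (adjusted p = 0.0866). Its exons overlap those of Mrpl47 on the other strand, and the strand setting of the counting is not given in the sources used here. Exons of 18 members overlap those of another gene of the count table, among them Ndufs1 (Eef1b2), Cox6c (Vps13b) and Atp5a1 (Haus1).

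Ndufb7, another membrane arm subunit (chromosome 8, 83566671 to 83571626, plus strand), was set apart by the female KO line. Its 3 female KO libraries stood at 115.8, 116.8 and 119.7 CPM, while male KO had 58.8, 61.7 and 57.3. Female R172H had 54.5, 49.1 and 63.0, female Y202C 47.9, 72.3 and 49.5, and female Y217C 60.5, 56.3 and 53.9. No library of the other 7 lines reached the female KO range. The log2 fold changes against female KO were -1.08, -1.05 and -1.04 (edgeR adjusted p = 4.24e-08, 8.08e-08 and 1.62e-07), and all 3 share the same female KO libraries. Among the males it fell by 0.55 on the log2 scale in Y202C (adjusted p = 0.000405), and its log2 fold changes were -0.07 in R172H (adjusted p = 0.668) and 0.22 in Y217C (adjusted p = 0.123).

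Of the core subunits, Ndufs1, which carries iron-sulphur centres of the peripheral arm, stood at 54.6, 52.3 and 52.4 CPM in female KO and at 34.0, 34.9 and 34.5 in female Y217C. The groups did not overlap, and the log2 fold change was -0.62 (SE 0.05, edgeR adjusted p = 7.9e-11). Ndufs1 also fell in male R172H (-0.27), female Y202C (-0.20) and male Y202C (-0.14, lost without replicate 3 of male KO, adjusted p = 0.0515). Ndufv2, the partner of the flavin-bearing subunit, rose in the 5 lines other than male R172H, by 0.18 to 0.47 on the log2 scale. Ndufv1, which binds NADH and the flavin, went from 80.3 ± 0.99 CPM (SD, n = 3) in male KO to 114 ± 10.3 in male Y202C (log2 0.51).

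Accessory subunits with large values differed from line to line. Ndufs5 stood at 31.5, 34.2 and 29.0 CPM in male KO and at 51.8, 61.7 and 66.3 in male Y202C, without overlap (log2 0.92, edgeR adjusted p = 9.44e-11), whereas in female Y202C it fell by 0.19, a call lost without replicate 2 of that line (adjusted p = 0.0607). Ndufa6 rose in 5 lines, from 0.24 in female Y202C to 0.86 in male Y202C, with 0.21 in male R172H (adjusted p = 0.0572). Its calls were lost in female Y202C without replicate 2 (adjusted p = 0.159) and in female Y217C without replicate 1 (adjusted p = 0.13). Ndufa1, which is X-linked, was at 18.2 ± 1.63 CPM (SD, n = 3) in male KO and 30.5 ± 1.28 in male Y217C (log2 0.75). Ndufa5 had its highest means in female Y202C (47.9 ± 0.27) and female Y217C (46.1 ± 2.29), against 28.3 ± 0.85 in female KO. Ndufa10 fell by 0.50 in female Y217C and by 0.31 in male R172H, and rose by 0.12 in male Y217C and 0.11 in female R172H. Ndufa4 stood at 63.6 ± 0.61 CPM in male KO and 44.7 ± 4.54 in male Y202C (log2 -0.51), and rose in the other 5 mutant lines by 0.24 to 0.57, with the call in female Y217C lost without replicate 1 (adjusted p = 0.0636).

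Complex II, succinate dehydrogenase, is wholly nuclear-encoded and shared with the citric acid cycle. Its 4 genes did not move together. Sdhb, the iron-sulphur subunit, stood at 78.3, 79.1 and 77.6 CPM in male KO, 120.9, 124.1 and 121.0 in male Y202C, and 56.3 ± 4.40 (SD, n = 3) in female Y202C, against 82.0, 81.4 and 78.8 in female KO. It thus rose in male Y202C (log2 0.64, SE 0.05, edgeR adjusted p = 6.39e-11) and fell in female Y202C (-0.52, SE 0.05, adjusted p = 4.77e-09), with no overlap in either case. The membrane anchor Sdhc fell in female Y217C (-0.62, adjusted p = 3.68e-08), male Y202C (-0.46) and male R172H (-0.29), and rose in female R172H (0.25) and female Y202C (0.21, lost without replicate 2 of that line, adjusted p = 0.112). Sdhd, the other anchor, fell by 0.52 in female Y202C and by 0.23 in male Y202C. The flavoprotein Sdha rose by 0.32 in female Y202C, 0.17 in female Y217C and 0.17 in male Y217C, and its fall in male R172H (-0.11, adjusted p = 0.0494) was lost without any 1 of the 6 libraries compared.

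Complex III passes electrons from ubiquinol to cytochrome c. Its 8 members had 3 rises and 1 fall in male Y217C, 2 and 2 in female R172H, 2 and 3 in male Y202C, 1 and 3 in each of female Y202C and female Y217C, and 0 and 1 in male R172H, and female Y202C had 1 and 5 without its replicate 2. Uqcrc1, a core protein, was at 222.3 ± 2.78 CPM (SD, n = 3) in female KO, 183.5 ± 15.1 in female R172H and 174.8 ± 21.6 in female Y202C (log2 -0.28 and -0.35), and fell by 0.23 in male Y202C. Uqcrc2, the other core protein, rose by 0.47 in male Y202C, 0.32 in male Y217C and 0.14 in female R172H. Uqcrb rose by 0.63 in female Y202C and 0.49 in female Y217C. The Rieske protein Uqcrfs1, which holds the iron-sulphur centre, had log2 fold changes between -0.18 and 0.08 in all 6.

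Complex IV, cytochrome c oxidase, reduces oxygen. Of its 13 nuclear members 10 rose and 1 fell in female R172H, with a median log2 fold change of 0.39. In male Y217C 7 rose and 0 fell, in male R172H 6 and 1, in male Y202C 4 and 5, in female Y217C 4 and 2, and in female Y202C 2 and 4. The summed CPM of the 13 genes was 1551, 1487 and 1662 in female R172H against 1181, 1178 and 1210 in female KO, and 1496, 1459 and 1491 in male Y217C against 1226, 1248 and 1190 in male KO. Neither pair of groups overlapped. Cox6c (158, 177 and 159 CPM in female R172H, 90.0 to 99.1 in female KO, log2 0.81) and Cox8a (log2 0.69) were among the largest of these rises, and Cox5a, which lies on the matrix side, fell in the same line (-0.58) and in female Y202C (-0.80).

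Cox7a2l, which is known for its part in joining complexes III and IV into supercomplexes (chromosome 17, 83501918 to 83517330, minus strand), was higher in all 6 mutant lines. Its libraries were at 80.1, 87.0 and 85.7 CPM in male KO and at 92.8, 88.3 and 92.4 in female KO. They were at 106, 122 and 116 in male R172H, 156, 175 and 175 in male Y202C, 125, 110 and 125 in male Y217C, 122, 122 and 117 in female R172H, 147, 152 and 153 in female Y202C, and 145, 119 and 123 in female Y217C. Every mutant library was above both KO lines. The log2 fold changes were 0.44, 1.00 and 0.51 in the males and 0.40, 0.72 and 0.50 in the females, in the order R172H, Y202C and Y217C (SE 0.07 each, edgeR adjusted p from 3.71e-12 to 1.58e-05). All 6 calls held with limma or DESeq2 in place of edgeR, with library totals and with each library left out. A further condition of more than 0.5 on the log2 scale ended those in male R172H, female R172H and female Y217C (0.497). Y202C was the highest line of each sex.

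Cox4i1, which is the isoform found in most tissues and is needed for assembly of the complex (chromosome 8, 120668222 to 120674207, plus strand), was the other member called higher in all 6. Its means were 198 ± 3.39 CPM (SD, n = 3) in male KO, 226 ± 3.23 in male R172H, 229 ± 13.2 in male Y202C and 293 ± 5.47 in male Y217C. In the females they were 160 ± 2.73 in KO, 259 ± 20.5 in R172H, 199 ± 23.9 in Y202C and 252 ± 10.8 in Y217C. No mutant library overlapped the KO line of its sex. The log2 fold changes were 0.19, 0.21, 0.57, 0.69, 0.31 and 0.65 in that order of mutants, and the call in male R172H (edgeR adjusted p = 0.0203) passed to 0.0520 to 0.0575 when any 1 of 4 libraries was left out. Its exons overlap those of Emc8 on the other strand.

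**Figure D3:**
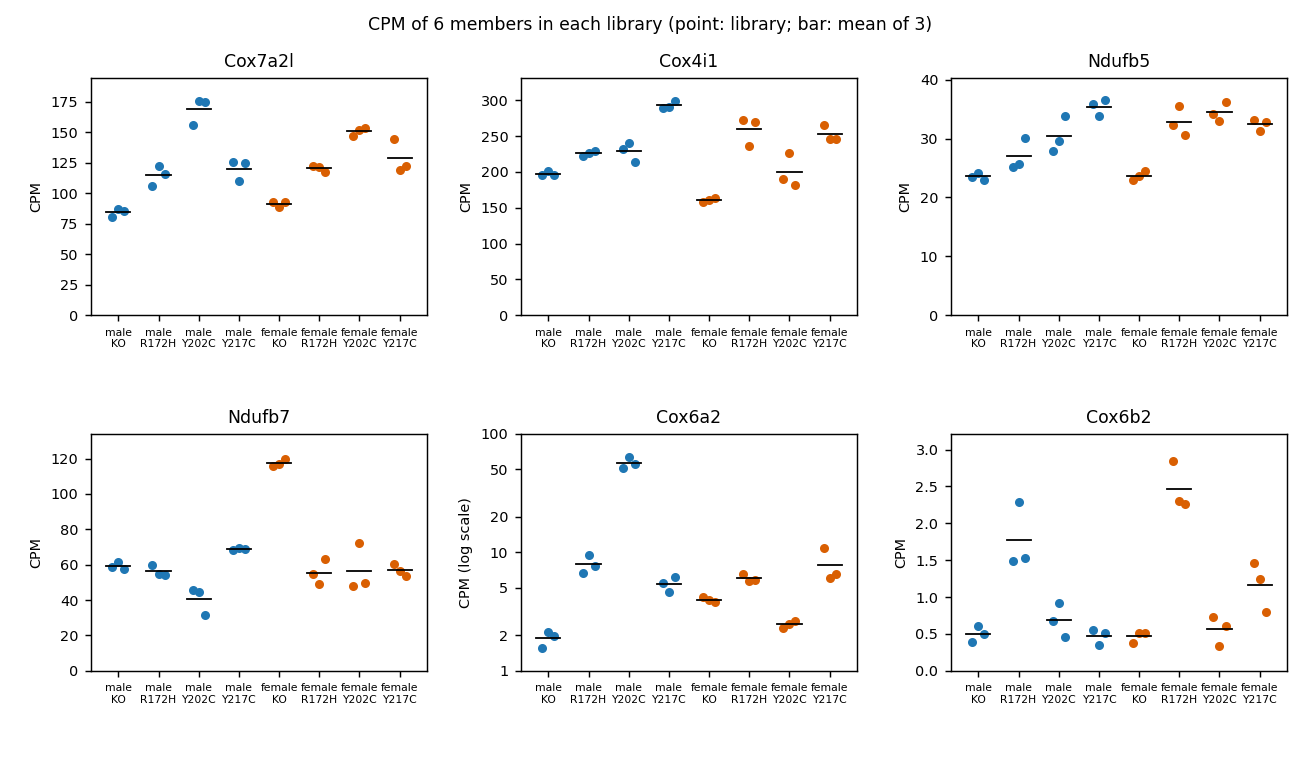
CPM of 6 members in each of the 24 libraries (points; blue male, orange female), with the mean of 3 as a bar. Cox6a2 is on a log axis and the others start at 0. Cox7a2l, Cox4i1 and Ndufb5 lie above the KO line of their sex in every mutant, Ndufb7 is high in female KO (115.8 to 119.7), and Cox6a2 stands out in male Y202C (51.8 to 63.0).

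The tissue-restricted isoforms in the count table gave the largest fold changes of all members. Isoforms absent from it, such as Cox4i2 and Cox7a1, could not be compared. Cox6a2, the heart and skeletal muscle form of subunit 6a (chromosome 7, 128205435 to 128206387, minus strand), was at 1.56, 2.13 and 1.97 CPM in male KO and at 51.8, 63.0 and 55.6 in male Y202C. Female Y202C had 2.48 ± 0.18 CPM (SD, n = 3), and the remaining lines had means of 3.99 to 7.90. The log2 fold change in male Y202C was 4.90 (SE 0.18, edgeR adjusted p = 4.73e-17), with 2.05 in male R172H, 1.51 in male Y217C, 0.97 in female Y217C, 0.60 in female R172H and a fall of 0.68 in female Y202C. Per kilobase, Cox6a2 made up 27.5% ± 3.1 (SD, n = 3) of the 2 subunit 6a genes in male Y202C and 0.95% ± 0.14 in male KO. Cox6a1, the common form, went from 202.2 ± 4.24 CPM to 156 ± 17.2 in male Y202C (log2 -0.38). Cox6a2 exons overlap those of Itgad on the other strand, a gene not analysed here.

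Cox6b2, the testis form of subunit 6b, was low throughout, yet it differed by mutant. Under 1 CPM in both KO lines, it met the filter (1 CPM in 2 libraries) only through mutant lines. Its rises are thus partly tied to its being tested. It was at 0.387, 0.612 and 0.495 CPM in male KO and 1.49, 2.29 and 1.53 in male R172H, and at 0.373, 0.512 and 0.512 in female KO and 2.85, 2.30 and 2.26 in female R172H. The log2 fold changes were 1.81 (SE 0.28, edgeR adjusted p = 2.07e-05) and 2.41 (SE 0.29, adjusted p = 8.97e-08), without overlap, and female Y217C rose by 1.33 (adjusted p = 0.000532). In the other 3 mutant lines its libraries overlapped the KO line. Even in female R172H it was 1.60% ± 0.27 (SD, n = 3) of the subunit 6b pair per kilobase.

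Complex V, the ATP synthase, had 6 rises and 1 fall among 17 members in male Y217C, 7 and 3 in female Y202C, 5 and 2 in female R172H, 3 and 6 in male Y202C, 3 and 5 in female Y217C, and 0 and 3 in male R172H. Without replicate 2 of female Y202C that line had 6 and 5, and without replicate 1 of female Y217C that line had 3 and 7. Atp5b was the member that fell most often: its libraries were at 1118, 1085 and 1043 CPM in male KO and 1104, 1095 and 1087 in female KO, against 791, 907 and 751 in female Y202C (log2 -0.42, SE 0.06, edgeR adjusted p = 5.86e-07). It also fell in male R172H (-0.18), male Y202C (-0.22), female R172H (-0.23) and female Y217C (-0.29), and its value in male Y217C was -0.02 (adjusted p = 0.796). The fall in male R172H missed the threshold without replicate 1 of male KO (adjusted p = 0.0575) or replicate 2 of male R172H (0.0715). Atp5a1, the alpha subunit that alternates with it in the F1 head, was at 409 ± 16.8 CPM (SD, n = 3) in male Y202C against 617 ± 18.5 in male KO (-0.59). Atp5mpl, a small membrane subunit, moved both ways among the males: it fell by 0.76 in Y202C, from 17.8, 17.8 and 16.9 CPM to 10.4, 9.07 and 11.6, and rose by 0.66 in Y217C, to 28.7, 29.1 and 25.1.

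Subunit c, which forms the rotor ring, is encoded by Atp5g1, Atp5g2 and Atp5g3, whose mature proteins are identical. Atp5g2 rose in male Y202C (log2 0.58), female R172H (0.67) and female Y202C (0.32, or 0.21 without replicate 2), and Atp5g3 fell in male R172H (-0.33), male Y202C (-0.38) and female Y217C (-0.26). The last of these calls was lost with library totals (adjusted p = 0.0715) and without replicate 3 of female Y217C (adjusted p = 0.0647). Per kilobase, Atp5g2 made up 31.3, 33.4 and 33.5% of the 3 genes in male KO and 32.0, 33.4 and 33.2% in female KO. Its mean share was 40.2% ± 2.3 (SD, n = 3) in male R172H, 46.6% ± 1.4 in male Y202C, 37.2% ± 1.2 in male Y217C, 45.4% ± 2.1 in female R172H, 38.5% ± 0.27 in female Y202C and 37.9% ± 1.6 in female Y217C. In each of the 18 mutant libraries the share was above that of the KO libraries of its sex. Atp5g1 kept between 11.2% and 13.7% as line means.

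**Figure D4:**
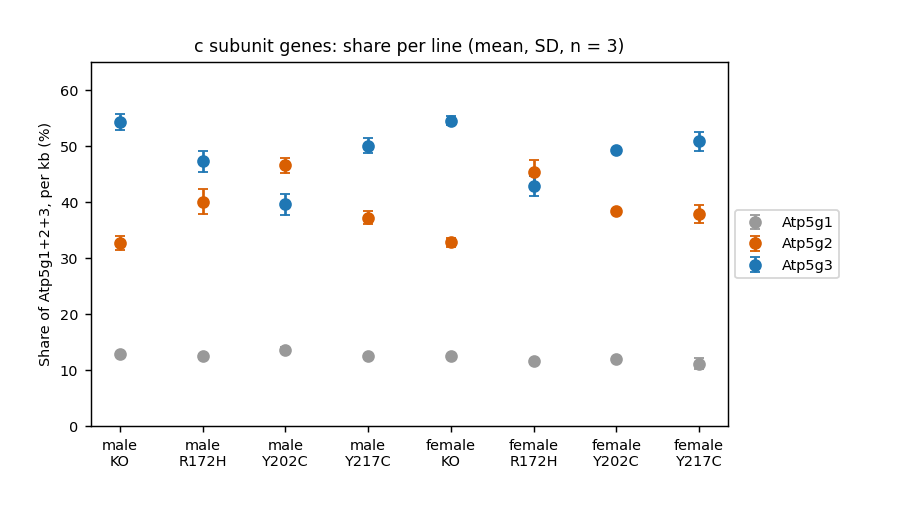
Share of the summed CPM per kilobase of Atp5g1, Atp5g2 and Atp5g3 taken by each gene (percent, mean and SD of 3 libraries) in the 8 lines. Atp5g2 is near 33% in both KO lines and higher in the 6 mutant lines, and it passes Atp5g3 in male Y202C and female R172H.

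The second question was whether the lines of the 2 sexes differed. In the KO lines 7 members were higher and 4 lower in the male culture, with 31.1% of all genes called, 17.2% higher and 13.8% lower. The largest were Ndufb7 (log2 -0.99, male against female) and Cox6a2 (-1.07), with Ndufs4 (0.32) and Cox4i1 (0.30) higher in the male. In R172H 7 were higher and 34 lower in the male line (62% of all genes called, 32.4% higher and 29.7% lower), led on the low side by Cox6c (-0.84) and Ndufv3 (-0.65). In Y217C 39 were higher and 4 lower (68%, with 33.4% higher and 34.6% lower), with Uqcr11 (0.80) and Cox5b (0.68) the largest of the higher ones and Cox6b2 (-1.32) the largest of the lower ones, followed by Cox6a2 (-0.53, lost without replicate 1 of female Y217C, adjusted p = 0.18). In Y202C 23 were higher and 30 lower (75.3%, with 37.7% in each direction), and without replicate 2 of female Y202C this became 31 and 23. Cox6a2 (4.51) and Sdhb (1.12) were higher in male Y202C and Atp5mpl lower (-1.15). The 7 higher members of the KO comparison became 3 without replicate 2 of female KO, and 4 without replicate 2 or 3 of male KO. Differences past 0.5 on the log2 scale were called in 2 members in KO (12% of all genes), 5 in R172H (30.4%), 21 in Y202C (49.1%) and 12 in Y217C (38%).

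The third question was whether a mutation acted differently on the 2 sexes, tested as the interaction of sex and mutation over all genes. For R172H 35 members were called, 5 with the higher log2 fold change in the male line and 30 in the female line (58% of all genes called, 29.7% and 28.3%). For Y217C 31 were called, 28 and 3 (54.8%, split as 27.5% and 27.4%), and for Y202C 44, 21 and 23 (68%, split as 34.5% and 33.5%). Differences of effect past 0.5 on the log2 scale were called in 11 members for R172H (36.2% of all genes), 23 for Y202C (50%) and 13 for Y217C (35%). With library totals the Y202C split was 15 and 31, and without replicate 2 of female Y202C it was 27 and 18. For Sdhb the Y202C effects of the 2 sexes differed by 1.16 on the log2 scale (SE 0.07, edgeR adjusted p = 9.8e-13). For R172H, Ndufv3 (-0.86) and Cox6c (-0.75) had the lower log2 fold change in the male.

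The level of the whole set followed these counts only loosely. The summed CPM of the 79 members was 7424, 7478 and 7190 in male KO and 8014, 7976 and 8083 in male Y217C, without overlap. In female KO it was 7331, 7295 and 7392, and in female R172H 7737, 7544 and 8283, also without overlap. Female Y202C gave 6912, 8082 and 6741, so that its replicate 2 lay above female KO and the other 2 below. In bulk samples fewer cells of a type and less RNA per cell cannot be told apart.

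The 13 subunits encoded by mitochondrial DNA, which join the nuclear ones in complexes I, III, IV and V, had another pattern. All 13 rose in male Y217C (median log2 0.72), 12 in female Y202C, 12 in female Y217C and 8 in female R172H, with no fall in these 4 lines, and all 13 rose in female Y202C without replicate 2. In male R172H 0 were called, and in male Y202C 0 rose and 5 fell. Their summed CPM was 32540, 27950 and 27250 in male Y217C against 16410, 18380 and 17120 in male KO. In female Y202C it was 29270, 18010 and 24930, so the library with the highest nuclear sum had the lowest mitochondrial one, and in male Y202C it was 16200, 17690 and 23500.

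**Figure D5:**
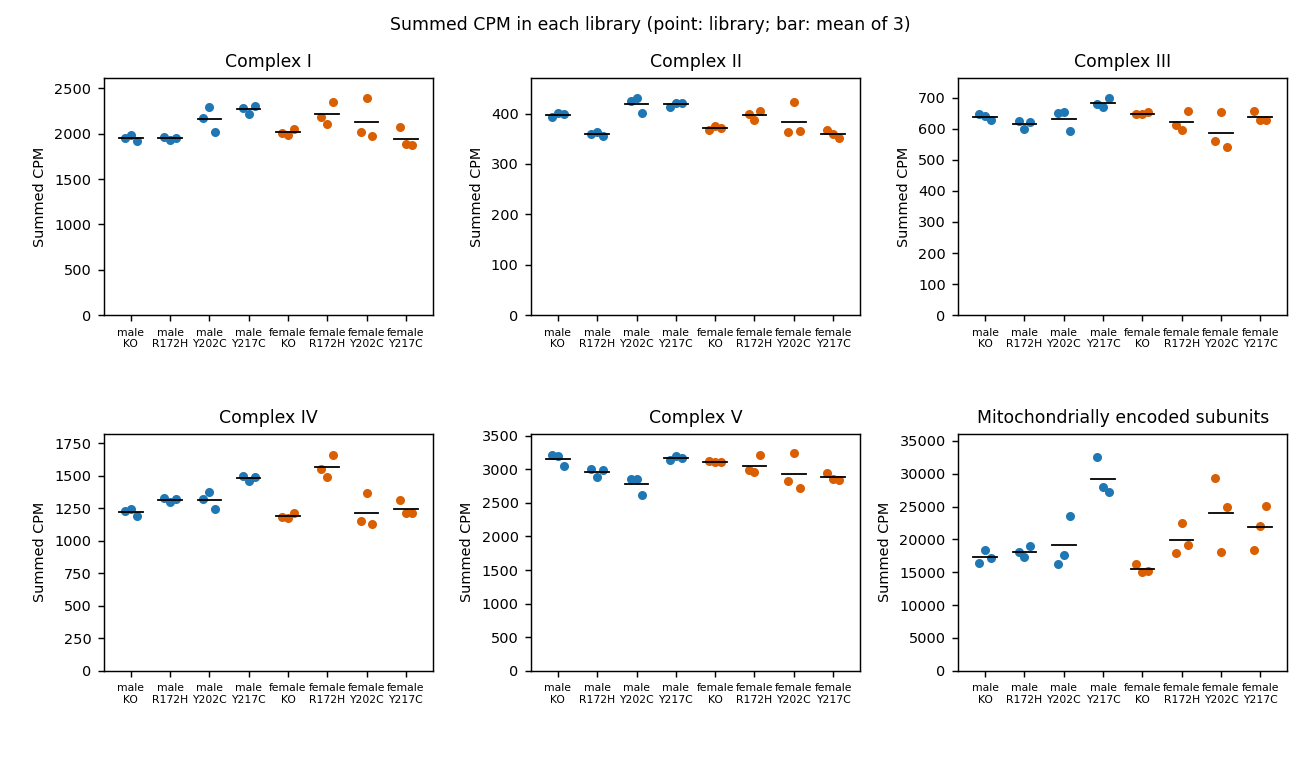
Summed CPM of the nuclear members of each complex and of the 13 mitochondrially encoded subunits in each library (points; blue male, orange female; bar, mean of 3), all axes from 0. Complex IV is highest in female R172H and male Y217C, the mitochondrially encoded sum is highest in male Y217C, and replicate 2 of female Y202C (middle point) is high in all nuclear panels and low in the mitochondrial one.

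Genes that build or regulate the complexes were read from lists outside the rule. Ppargc1a, the PGC-1alpha coactivator of mitochondrial biogenesis, was at 0.145, 0.119 and 0.137 CPM in male KO and 13.1, 9.44 and 11.8 in male Y217C (edgeR adjusted p = 1.39e-15). It was at 0.0196, 0.0512 and 0.0579 in female KO and 3.62, 3.44 and 3.96 in female R172H (adjusted p = 5.82e-14). In male Y202C it rose to 0.480, 0.596 and 0.549, and in the other 3 mutant lines the highest library had 0.0773 CPM. Ppargc1a fell in male R172H (log2 -3.875, edgeR adjusted p = 0.000153), with both lines far under 1 CPM. It passed 1 CPM, the filter level, only in male Y217C and female R172H, so its rises there are partly tied to its being tested. Ppargc1b rose in the 5 lines other than male R172H (0.41 to 1.11), Nrf1 fell in male Y217C and the 3 female mutants (-0.28 to -0.52), Gabpa rose in male Y202C (0.40) and fell in female R172H (-0.35), Tfam rose in male Y202C, male Y217C and female Y202C (0.14 to 0.24, lost in the last without replicate 2, adjusted p = 0.133), and Esrra rose in all 3 of male Y202C, male Y217C and female R172H. Other members of the list went the other way in the lines where Ppargc1a was highest. Pprc1, also of the PGC-1 family, fell in male Y217C (-0.84), female R172H (-0.76), female Y202C (-0.62) and female Y217C (-0.20, lost without replicate 1, adjusted p = 0.328), and rose in male R172H (0.28). Yy1 fell in male Y217C (-0.22) and female R172H (-0.57), as did Gabpb1, a GABP subunit (-0.34 and -0.52). Of the 17 regulators 5 rose and 5 fell in male Y217C, and 5 and 7 in female R172H. Any part of these genes in the members' values was not tested.

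Of 16 complex I assembly factors 9 rose and 0 fell in male Y202C, led by Tmem126a (log2 1.38), and 3 rose and 8 fell in female R172H, led by Ndufaf4 (-0.92), the line in which 16 complex I subunits rose. Of 19 complex IV assembly factors 10 rose and 4 fell in female R172H, with Surf1 at 0.75. Of 6 complex III factors Uqcc3 was the foremost in 5 of the 6 lines (0.30 to 0.85). Of the complex V factors Atpaf1 rose in male Y202C (0.59) and fell in female Y202C (-0.58). Complex II factors ranged by line, with Sdhaf4 at -0.63 in male Y202C and 0.59 in male Y217C. Cytochrome c1 (Cyc1) fell in female Y202C (-0.46) and female Y217C (-0.44), and cytochrome c (Cycs) in female R172H (-0.64) and female Y202C (-0.43). Of 13 citric acid cycle genes 1 rose and 6 fell in male R172H, 5 and 5 in male Y202C, 3 and 5 in male Y217C, 4 and 6 in female R172H, 3 and 7 in female Y202C (4 and 6 without replicate 2) and 3 and 5 in female Y217C (2 and 4 without replicate 1). The ATP synthase inhibitor Atpif1 rose in female Y217C (0.51) and male Y202C (0.34).

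Other groups moved in the same lines. Of 82 cytosolic ribosomal protein genes, 0 rose and 71 fell in male Y217C (median -0.37), while 38 rose and 5 fell in male R172H. Of 76 mitochondrial ribosomal protein genes 43 rose and 18 fell in male Y202C. Among 3531 other genes with up to 2445 bp of exon 1277 rose and 851 fell in male Y217C (median 0.11), against 0.17 for the members. Of 11 astrocyte markers 9 rose and 0 fell in male Y217C, with a summed level of 5151 to 5227 CPM against 4489 to 4699 in male KO. Most of that sum was Vim, while Gfap and Aqp4 were low in every line. The 7 fibroblast and mural markers gave 6 rises and 1 fall in female R172H (38230 to 44700 CPM against 24590 to 26460 in female KO). They gave 1 and 3 in male Y202C (10140 to 12310 against 27580 to 32470 in male KO). The part of these groups in the members' values was not tested.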

How the data were processed

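The authors deposited raw counts per gene, made per the labels with STAR 2.5.1a and featureCounts of Subread. Symbols, types and coordinates came from GENCODE M21 (GRCm38), and the strand setting of the counting is not given in the sources used here. Library sizes were scaled by TMM, and genes with at least 1 CPM in at least 2 libraries were tested (all 14427). One model over the 8 lines was fitted with edgeR 4.0.16 (quasi-likelihood, R 4.3.3), giving 6 mutant, 4 sex and 3 interaction contrasts with Benjamini-Hochberg adjustment over all genes, and was tested on simulated data. CPM values used the TMM-scaled library sizes. Members and lists were chosen with earlier results of these data known, and isoform shares and motif stretches after the values were seen. Named genes were core subunits, isoform families, the 2 largest rises and falls per line comparison, members called alike in all 6 mutant lines, the 2 largest interactions each, and listed regulators. Others were named after their values were seen. The values of 1 core subunit are not reported here, although it stays in the counts. Replicate numbers name libraries: same-numbered libraries did not deviate together (mean r -0.0116 over 84 pairs, 0.00571 over 168 others). The number of columns of other samples was 0. Alternatives were DESeq2 1.42.0, limma 3.58.1 with quality weights, other scalings, filters and thresholds, a replicate block, and each library left out. Counts of gene groups without replicate 2 of female Y202C or replicate 1 of female Y217C were added after the data were seen. Intervals cover the spread between libraries only.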

Additional observations from a re-analysis of the deposited data

Results flagged for a closer look

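The effect of a mutation differed between the male and the female line, by the interaction test of edgeR, for the following members, each given as the male minus the female log2 fold change. For Y202C the difference was 5.58 for Cox6a2 (SE 0.25, adjusted p = 2.38e-15), which rose in the male line and fell in the female line, and -1.23 for Atp5mpl (SE 0.12, adjusted p = 5.07e-09), which fell in the male and rose in the female. For R172H it was 1.45 for Cox6a2 (SE 0.24, adjusted p = 1.68e-05), which rose in both, and 1.01 for Ndufb7 (SE 0.17, adjusted p = 2.91e-05). For Y217C it was 1.26 for Ndufb7 (SE 0.18, adjusted p = 1.36e-06) and -1.44 for Cox6b2 (SE 0.43, adjusted p = 0.00674). The Ndufb7 differences share the high female KO libraries of that gene. In all, 35 members were called for R172H, 44 for Y202C and 31 for Y217C, against 58%, 68% and 54.8% of all genes. With 3 libraries a line, this list was not extended to genes set apart by a single far library, and each sex is 1 culture.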

How the results depend on the processing

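The limits are 3 libraries per line, 1 culture per sex and small changes, so a size threshold matters most. With an absolute log2 fold change above 0.5 as a further condition, calls were 2 in male R172H, 18 in male Y202C, 7 in male Y217C, 13 in female R172H, 13 in female Y202C, 10 in female Y217C, then 2, 5, 21 and 12 between the sexes in KO, R172H, Y202C and Y217C, and 11, 23 and 13 for the interactions of R172H, Y202C and Y217C. With an adjusted p of 0.01, calls were 16 in male R172H, 6 between the KO lines and 21 for the R172H interaction. With limma they were 22 between the KO lines and 51 for the Y217C interaction, female Y202C had 29 higher and 27 lower, and male against female Y202C 32 and 20. Fitting only the lines compared gave 21 between the KO lines. Leaving out each library gave 18 to 22, 43 to 50 and 33 to 39 calls for male R172H, Y202C and Y217C, 36 to 44, 43 to 48 and 29 to 34 for the female lines, 7 to 10 between the KO lines, 37 to 39, 48 to 54 and 40 to 46 between the sexes of the mutants, and 27 to 33, 40 to 46 and 24 to 37 for the interactions. Without 1 library the splits of the R172H sex comparison (3 and 35 without replicate 2 of female R172H) and of the Y202C interaction (15 and 31 without replicate 3 of female Y202C) also moved. Atp5a1 in male Y217C turned from -0.00 to 0.10 (adjusted p = 0.0455) with library totals. The replicate block, on numbers that do not pair the libraries, gave 23, 46, 41, 40, 47 and 34 calls in the mutant lines, 11, 40, 53 and 42 between the sexes and 33, 43 and 30 for the interactions. No filter gave the same values as the main analysis, and with at least 10 CPM in 3 libraries 76 members were tested. Causes were not tested.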
